A study of Mus musculus with 7 samples.

Results

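The syndecans Sdc1, Sdc2, Sdc3 and Sdc4, perlecan (Hspg2), agrin (Agrn) and betaglycan (Tgfbr3) were followed as 7 genes, picked by symbol, of the 19257 in the deposited table, and all 7 were found in it. They were measured by bulk RNA-Seq in 3 brains of the 3xCR group (replicates 2, 3 and 4) and 4 brains of the GPC6 group (replicates 1 to 4). Both groups were mouse gliomas started in the embryo by in utero electroporation of ventricular progenitors with Cas9 and guides against tumor suppressor genes including Trp53 and Nf1, and with a piggyBac reporter. The GPC6 group differed by a piggyBac element that overexpressed GPC6, the heparan sulfate proteoglycan glypican 6, and tissue was taken under fluorescence once the mice reached the endpoint. The animals were of CD-1 and C57BL/6 background and of both sexes, and the background, sex and age of each library's mouse were not given. The constructs reach progenitors of any fate, and the tissue holds host neurons, glia, vessels and immune cells beside tumor cells. Fewer cells of a type and less RNA per cell therefore cannot be told apart in any value below. The labels call the material neural brain tissue, and no marker of neurons, astrocytes or oligodendrocytes was at 0 in any library.

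Heparan sulfate proteoglycans are core proteins that carry long sulfated sugar chains, which bind growth factors, morphogens and matrix proteins. Syndecans span the membrane and link this outer sugar coat to the cytoskeleton, whereas glypicans such as GPC6 are held by a lipid anchor. Perlecan and agrin are found in basement membranes, among them those of brain vessels and the pial surface, and agrin also organizes postsynaptic sites at the neuromuscular junction. Betaglycan is a membrane proteoglycan that presents TGF-beta and inhibin to their receptors. In the brain Sdc3 is known from neurons and their progenitors, among other cells, while Sdc4 is widely expressed in astrocytes.

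No difference between the groups passed the test for any of the 7 genes, as for 0% of all genes, while single tumors differed in Sdc1 by up to 25.3-fold and in Hspg2 by up to 7.94-fold. Sdc3 was by far the most abundant member in either group. The smallest unadjusted p belonged to Sdc4, whose log2 fold change was -0.56.

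Values are normalized counts, which are reads per gene divided by a size factor for the library. Lists of values follow the replicate numbers, from 2 to 4 in the 3xCR group and from 1 to 4 in the GPC6 group. Reads on genes numbered 7197692 in the smallest and 18879762 in the largest library, and each member had at least 32 reads in each of them. Gpc6 itself, which checks the labels, had 126 to 226 normalized counts in the 3xCR libraries and 675, 263, 3434 and 5084 in GPC6 replicates 1 to 4. Replicate 2 of the GPC6 group thus lay next to the 3xCR level. GPC6 replicate 1 stood apart in its makeup, since its 10 neuronal markers summed to 67328 normalized counts, against 5470 to 33429 in the other libraries, and its 10 proliferation markers to 748 against 5459 to 14638.

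Sdc3, whose known ligands include pleiotrophin, lies on chromosome 4 of GRCm38 (130792537 to 130826319, plus strand). Its normalized counts were 9413, 11750 and 7332 for 3xCR and 4793, 12946, 12260 and 7007 for GPC6 tumors. Both the lowest and the highest tumor belonged to the GPC6 group, and the 3xCR values fell inside its range. The means were 9498 ± 2211 (SD, n = 3) and 9252 ± 3984 (SD, n = 4), and the log2 fold change was -0.13 with a standard error of 0.41 (limma, Benjamini-Hochberg adjusted p = 0.936). The 95% interval ran from -1.07 to 0.81, so a change of 2-fold down was inside it and one of 2-fold up was not. The sign of this difference turned without GPC6 replicate 1 (0.15) and without 3xCR replicate 3 (0.041). The antisense transcripts Gm12970 and Gm26716 overlap exons of Sdc3 on the opposite strand, and whether the counting used strand was not stated.

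Sdc4, a syndecan of focal adhesions that signals with integrins, lies on chromosome 2 (164424247 to 164443887, minus strand). Its normalized counts were 914, 1547 and 1184 for 3xCR and 1147, 679, 901 and 597 for GPC6 tumors. GPC6 replicate 1 lay among the 3xCR tumors, and the other GPC6 tumors lay below all of them. The log2 fold change was -0.56 (standard error 0.29, 95% interval -1.24 to 0.12, limma unadjusted p = 0.094, adjusted p = 0.730), and a two-sided exact permutation test gave p = 0.114, where 3 libraries against 4 cannot go below 0.057. Without GPC6 replicate 1 the groups no longer overlapped, as for 1330 of the 14608 genes then tested. The value was then -0.73 (limma unadjusted p = 0.028, adjusted p = 0.901). Leaving out 3xCR replicate 3 gave -0.37. With weights per library Sdc4 was called (-0.76, limma adjusted p = 0.036), as were 1962 of all genes.

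Sdc2 and Sdc1 stood out in 3xCR replicate 4. Sdc2, on chromosome 15 (32920723 to 33034935, plus strand), is known from mesenchymal and dendritic spine biology. It had 614, 568 and 1309 normalized counts for 3xCR and 615, 664, 633 and 659 for GPC6 tumors. The GPC6 tumors kept within a narrow band (643 ± 22.9, SD, n = 4), and the 3xCR mean of 831 ± 415 (SD, n = 3) was carried by 1 tumor. Its log2 fold change was -0.26 (95% interval -0.97 to 0.44, limma adjusted p = 0.813), and without 3xCR replicate 4 it was 0.12.

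Sdc1, the syndecan of epithelia and plasma cells, lies on chromosome 12 (8771323 to 8793715, plus strand). Its normalized counts were 255, 363 and 1407 for 3xCR and 55.6, 521, 278 and 567 for GPC6 tumors. The extremes were 1 tumor of each group, 3xCR replicate 4 at the top and GPC6 replicate 1 at the bottom, where the value rests on 36 reads. The log2 fold change was -0.96 (95% interval -3.04 to 1.13, limma adjusted p = 0.769), and it shrank to -0.22 without either of these tumors. The spread of Sdc1 over the 7 libraries, an SD of 1.42 on the log2 scale, was above that of 91.2% of the genes tested, whose median SD was 0.52.

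Hspg2, on chromosome 4 (137468769 to 137570630, plus strand), had normalized counts of 187, 625 and 1141 for 3xCR and 144, 747, 531 and 619 for GPC6 tumors. One library of each group was low, and the remaining 5 lay between 531 and 1141. The log2 fold change was -0.24 (95% interval -1.95 to 1.48, limma adjusted p = 0.934). Leaving out 3xCR replicate 2 gave -0.96, and leaving out 3xCR replicate 4 or GPC6 replicate 1 gave 0.34 or 0.29, so single tumors set its sign.

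Agrn, on chromosome 4 (156165290 to 156197488, minus strand), had the smallest SD of log2 values among the members. It had 2139, 1962 and 1919 normalized counts for 3xCR and 1453, 3632, 2259 and 2041 for GPC6 tumors. The 3xCR tumors were close together (2007 ± 117, SD, n = 3), and the GPC6 tumors lay on both sides of them (2346 ± 922, SD, n = 4). The log2 fold change was 0.15 (95% interval -0.56 to 0.86, limma adjusted p = 0.895), and it was -0.088 without GPC6 replicate 2, the tumor of the highest value.

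Tgfbr3, on chromosome 5 (107106570 to 107289629, minus strand), was the scarcest member, with 32 to 77 reads per library. Its normalized counts were 40.0, 50.2 and 73.2 for 3xCR and 119, 31.6, 51.5 and 43.2 for GPC6 tumors. GPC6 replicate 1 was the highest of all 7, and the other GPC6 tumors fell below or within the 3xCR range. The log2 fold change was 0.028 (95% interval -1.15 to 1.21, limma adjusted p = 0.989). It was -0.35 without GPC6 replicate 1 and -0.17 without 3xCR replicate 2, and its sign also turned when the libraries were scaled to an equal upper quartile (-0.016). Gm43422 overlaps exons of Tgfbr3 on the same strand, and how reads shared by both were counted was not stated.

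**Figure D1:**
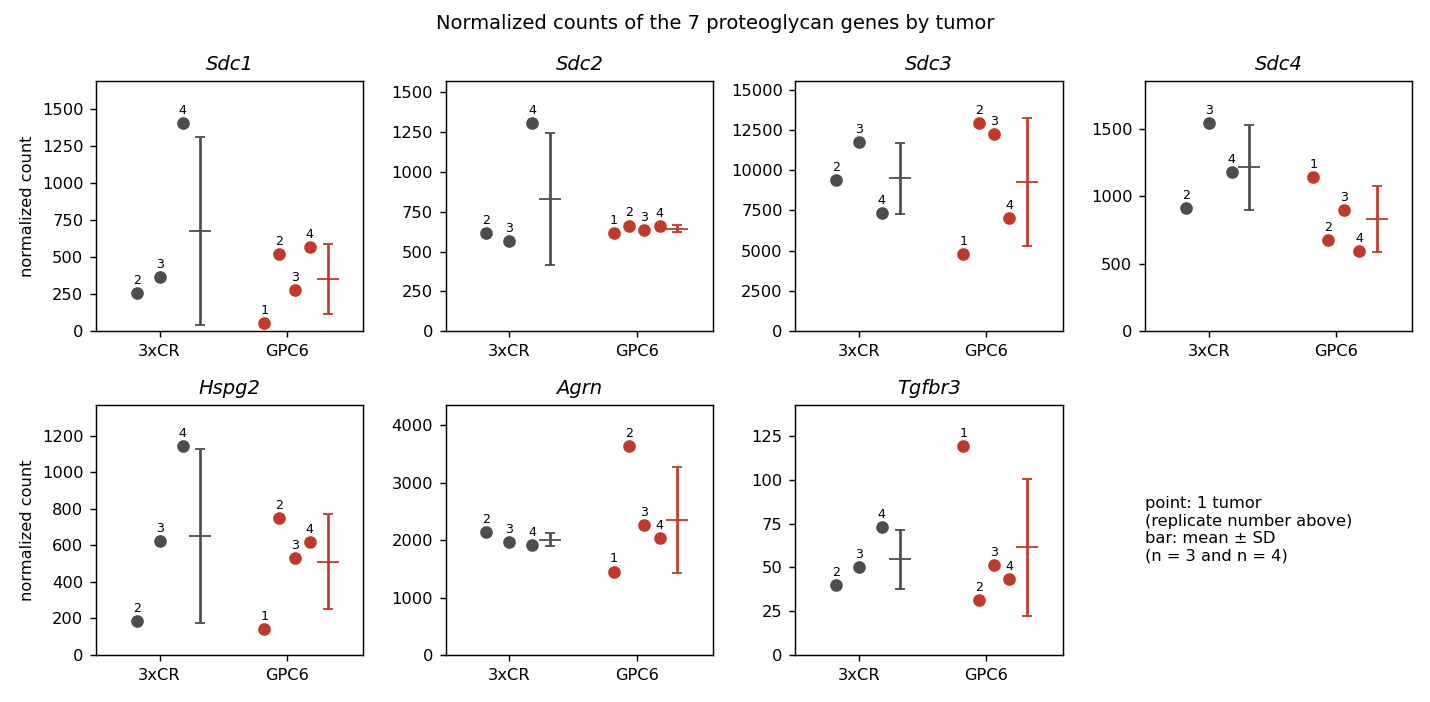
Normalized counts (vertical axes, linear from 0) of the 7 genes in each tumor, with 3xCR in grey and GPC6 in red. Points are single tumors marked with their replicate number, bars give mean ± SD (n = 3 and n = 4), and the groups overlap in each panel, Sdc4 having only GPC6 replicate 1 inside the 3xCR range.

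In limma's test across all genes 0 of the 7 members were below an adjusted p of 0.05, which was also true of 0% of the 14782 genes tested (a mean of 10 normalized counts or more). At an unadjusted p under 0.05 there were 0 members, where 4.66% of all genes lay, and edgeR and DESeq2 on the recovered reads likewise had 0 members at this level (of 991 and 1793 genes). The groups did not overlap for 0 members, against 6.32% of all genes. The median log2 fold change of all genes was -0.019. The mean log2 value in GPC6 tumors was lower for 5 members and higher for 2, which is no more than a description, since single libraries turned the sign of all but Sdc1 and Sdc4.

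**Figure D2:**
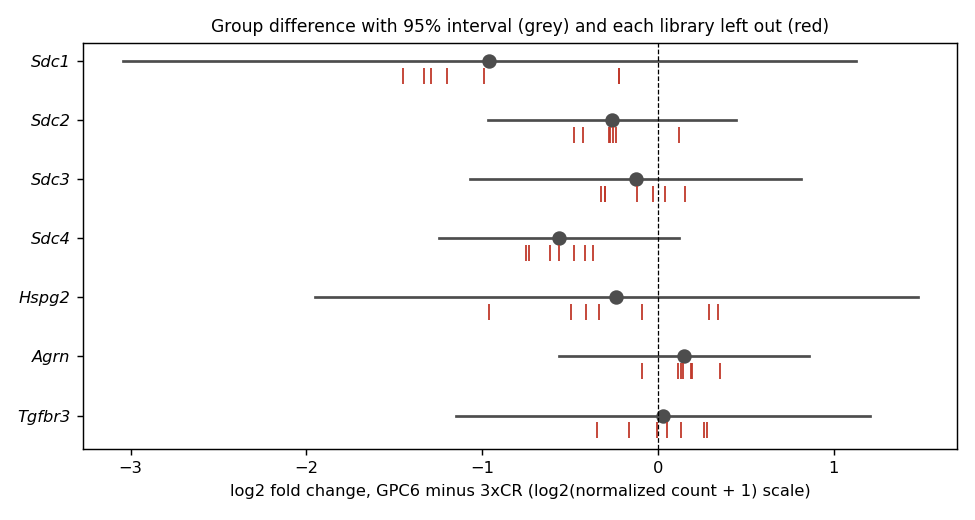
Log2 fold change of each gene, GPC6 minus 3xCR, on the log2(normalized count + 1) scale. Grey points and lines give the limma estimate and its 95% interval, red ticks the estimate with each library left out, and all 7 intervals cross 0, that of Sdc4 ending at 0.12.

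Levels of different genes were set side by side per kilobase of annotated exon (GENCODE gene models of GRCm38). Over the 7 libraries the order was Sdc3 (1562 ± 517 normalized counts per kb, SD, n = 7), Sdc4 (391 ± 128), Agrn (237 ± 73.3), Sdc2 (205 ± 73.8), Sdc1 (129 ± 115), Hspg2 (39.9 ± 23.7) and Tgfbr3 (8.92 ± 4.54). Neighbors in this order were compared within libraries by two-sided exact permutation tests (sign flips, 6 pairs, Benjamini-Hochberg adjusted). The order was taken from the same values, so these tests are no separate support for it. Sdc3 exceeded Sdc4 in 7 of 7 libraries, by 3.97-fold per kb on average (exact p = 0.016, the smallest that 7 libraries allow, adjusted p = 0.031). Sdc2 exceeded Sdc1 and Sdc1 exceeded Hspg2, each in 7 of 7 libraries with the same p-values. By normalized count Sdc2 also had a higher mean over the 7 libraries than Sdc1 (723 against 492), but in 3xCR replicate 4 Sdc1 (1407) was above Sdc2 (1309). The order of Sdc1 and Hspg2 rests on the division by length. By normalized count the mean of Hspg2 over the 7 libraries (571) was above that of Sdc1 (492). Hspg2 exceeded Tgfbr3 in 6 of 7 (exact p = 0.031, adjusted p = 0.047), the exception being GPC6 replicate 1. Sdc4 and Agrn (6 of 7, exact p = 0.063, adjusted p = 0.075) and Agrn and Sdc2 (5 of 7, exact p = 0.375) did not differ per kb beyond the spread of their ratios. The order of Sdc4 and Agrn also rests on the division by length. By normalized count the mean of Agrn over the 7 libraries (2201) was above that of Sdc4 (995).

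Among the syndecans, Sdc3 supplied 50.4% to 78.5% of the summed level per kb in each tumor. Its share was 64.1% ± 11.9 (SD, n = 3) in 3xCR and 69.6% ± 10.6 (SD, n = 4) in GPC6 tumors. The share of Sdc4 was 16.5%, 21.5% and 19.1% for 3xCR and 31.3%, 9.68%, 13.3% and 13.5% for GPC6 tumors. GPC6 replicate 1 again lay on the other side of the 3xCR tumors from the remaining GPC6 tumors. In 3xCR replicate 4 Sdc1 and Sdc2 held 15.2% and 15.3%, their highest shares. The ratio of Sdc4 to Sdc3 per kb differed by -0.44 on the log2 scale between the groups, with overlapping ranges (two-sided exact permutation test, p = 0.457, adjusted p = 0.838 over 4 ratios).

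**Figure D3:**
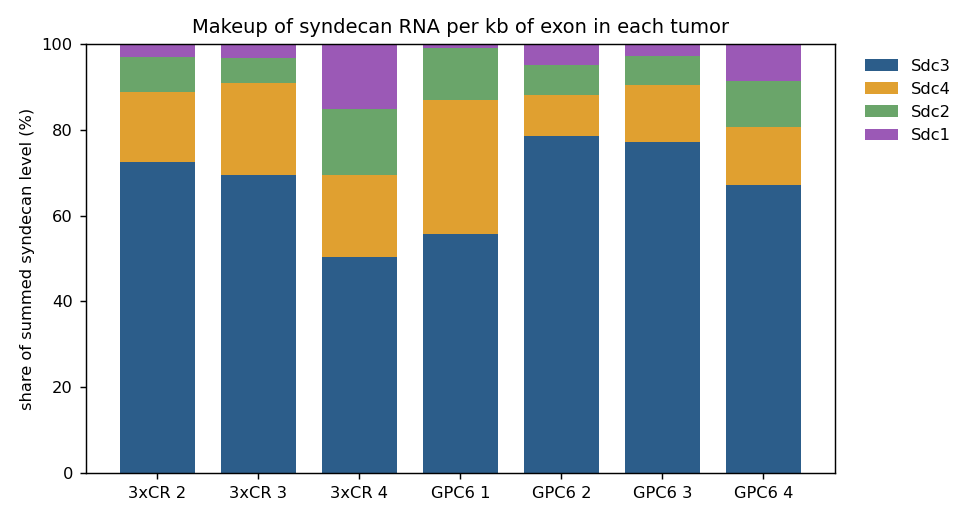
Share (%) of each syndecan in the summed syndecan level per kb of exon, 1 bar per tumor, with colors for the genes. Sdc3 holds 50.4% to 78.5% of each bar, and the bars of 3xCR replicate 4 and GPC6 replicate 1 have its smallest shares.

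Against 13 other proteoglycans that carry or can carry heparan sulfate, Sdc3 had the highest level per kb in 6 of 7 libraries. In GPC6 replicate 1 it came second, behind the testican Spock2. Tgfbr3 ranked between 16 and 20 of the 20 genes, and Hspg2 between 11 and 19. Gpc6, the introduced gene, ranked 14 or 15 in the 3xCR tumors and 10, 13, 3 and 2 in GPC6 replicates 1 to 4. The ranks of Gpc6 rest on the exon length of the mouse gene, and the length of the transcript made from the piggyBac element was not given in the sources used here, so Gpc6 and Sdc3 cannot be ordered in GPC6 replicates 3 and 4.

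Sdc1 and Hspg2 varied together from tumor to tumor. Over the 7 libraries their log2 values had a Pearson r of 0.893 (two-sided exact permutation test, p = 0.0016, adjusted p = 0.033 over 21 pairs of members) and a Spearman rho of 0.893 (exact p = 0.012, adjusted p = 0.258). After each group's mean was taken away r was 0.919, while 3 and 4 libraries were too few for a value within a group. Without the 2 libraries farthest from the median of Sdc1, 3xCR replicate 4 and GPC6 replicate 1, r was 0.719 over the remaining 5 (exact p = 0.067), so the relation did not hold at 0.05 without those tumors. Agrn and Tgfbr3 ran in opposite directions (r = -0.841, exact permutation p = 0.0075, adjusted p = 0.069, rho = -0.786, exact p = 0.048, adjusted p = 0.336), and Agrn and Sdc3 in the same one (r = 0.768, exact permutation p = 0.0099, adjusted p = 0.069, rho = 0.821, exact p = 0.034, adjusted p = 0.336). Neither pair passed adjustment, and without GPC6 replicates 1 and 2 their r was -0.517 and 0.498.

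**Figure D4:**
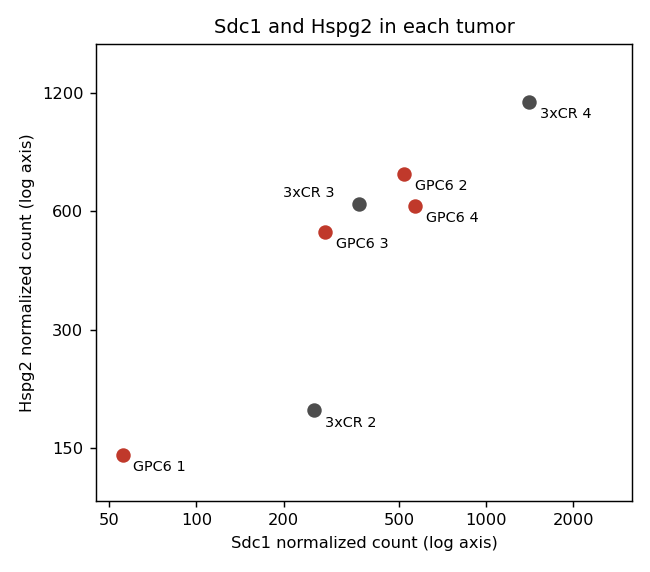
Normalized counts of Sdc1 (horizontal, log axis) and Hspg2 (vertical, log axis) in each tumor, 3xCR in grey and GPC6 in red. The 7 points rise together (r = 0.893 on log2 values), with GPC6 replicate 1 at the lower and 3xCR replicate 4 at the upper end.

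The promoters of Sdc1 and Hspg2 are shown because these were the members that varied together. RefSeq promoter entries (GRCm38.p6) were matched for 5 of the 7 members, with none for Sdc2 and Tgfbr3. Each line gives the 100 bases on the plus strand that end just before the first annotated start, with capitals for the GC box GGGCGG, looked for on both strands.
Sdc1, chr12:8771223-8771322: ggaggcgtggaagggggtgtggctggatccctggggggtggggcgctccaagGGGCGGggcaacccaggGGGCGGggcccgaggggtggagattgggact
Hspg2, chr4:137468669-137468768: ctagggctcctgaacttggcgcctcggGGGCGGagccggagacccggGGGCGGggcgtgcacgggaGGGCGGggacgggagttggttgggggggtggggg
The Sdc1 window held 2 copies and the Hspg2 window 3. Of the 32851 RefSeq promoter windows at the same distance from the start, 16.0% held at least 1 copy at the place of the Sdc1 window and 21.4% at that of the Hspg2 window. The windows were GC-rich (75% and 78%, against medians of 53% and 54%), and a match of letters is not evidence of a bound factor.

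The levels of the members were also read beside marker lists of cell types, scored in each library as the mean log2 deviation of the list from its average over the 7 libraries. The tumor of highest Sdc1, Sdc2 and Hspg2 was 3xCR replicate 4. It also had the highest scores of fibroblast and meningeal (2.06), microglia and macrophage (1.01) and mural genes (0.57). That tumor had the lowest neuronal (-1.80) and astrocyte (-1.18) scores. The lowest fibroblast and meningeal score (-1.77) was that of GPC6 replicate 4, whose Sdc1 was the second highest. The 8 fibroblast and meningeal markers, collagens and decorin among them, summed to 47163 normalized counts in 3xCR replicate 4. The sums were 1207 and 1909 in the other 3xCR tumors and 490 to 4978 in GPC6 tumors, with no marker at 0. The tumor of lowest Sdc1, Sdc3, Hspg2 and Agrn and highest Tgfbr3 was GPC6 replicate 1. It had the highest scores of neuronal (2.54), astrocyte (0.88), oligodendrocyte (0.97) and choroid plexus and ependymal genes (3.18). Its scores of proliferation (-3.05), oligodendrocyte precursor (-1.17), microglia and macrophage (-1.19) and mural genes (-0.58) were the lowest. GPC6 replicate 2, with the most Sdc3 and Agrn, had the highest score of oligodendrocyte precursor genes (1.29). The part of these cells in the levels of the members was not tested.

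Between the groups, single libraries set much of the difference in these lists. The mean log2 value of all 10 neuronal markers was higher in GPC6 tumors (median log2 fold change 1.66, sums of 7073 to 67328 against 5470 to 10484). Without GPC6 replicate 1 the median was 1.01 with 9 of 10 higher, and the score of GPC6 replicate 2 (-1.22) lay below those of 3xCR replicates 2 and 3 (-0.26 and -0.83). All 10 proliferation markers were lower (-0.64, sums of 748 to 14638 against 5459 to 12767), but without GPC6 replicate 1 the median was 0.29 and 8 of 10 were higher. Without 3xCR replicate 3 it was -0.33. All 10 microglia and macrophage markers were lower (-0.52, sums of 6510 to 19337 against 11853 to 43844), and 8 of 10 were so without 3xCR replicate 4 (-0.38) or GPC6 replicate 1 (-0.37). The median of the fibroblast and meningeal list was -1.14 (2 of 8 higher) and -0.39 without 3xCR replicate 4. That of the choroid plexus and ependymal list was -0.89 (1 of 8 higher), with -0.20 without 3xCR replicate 3 and -2.02 without GPC6 replicate 1, where 5 of its genes could be tested. The medians of the remaining lists changed sign with 1 library. The endothelial median was 0.37 (8 of 10 higher) and -0.11 without 3xCR replicate 2, the mural -0.30 (4 of 10 higher) and 0.072 without GPC6 replicate 4, and the oligodendrocyte -0.67 (1 of 8 higher) and 0.050 without GPC6 replicate 4. The astrocyte median was 0.11 (6 of 8 higher), with -0.34 without 3xCR replicate 4 and -0.22 without GPC6 replicate 1. The oligodendrocyte precursor median was 0.0074 (4 of 8 higher) and leaving out 3xCR replicate 4 or GPC6 replicate 1 gave -0.36 or 0.45. Folr1, Otx2 and Tmem212 of the choroid plexus and ependymal list were at 0 in at least 1 library. No marker passed limma's adjusted p. At an unadjusted p under 0.05 (limma), where 4.66% of all genes lay, were 6 markers of 3 lists. Snap25 and Nefm were higher in GPC6 tumors, Aif1 and Tmem119 were lower, and of Flt1 and Egfl7 1 was higher and 1 lower.

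**Figure D5:**
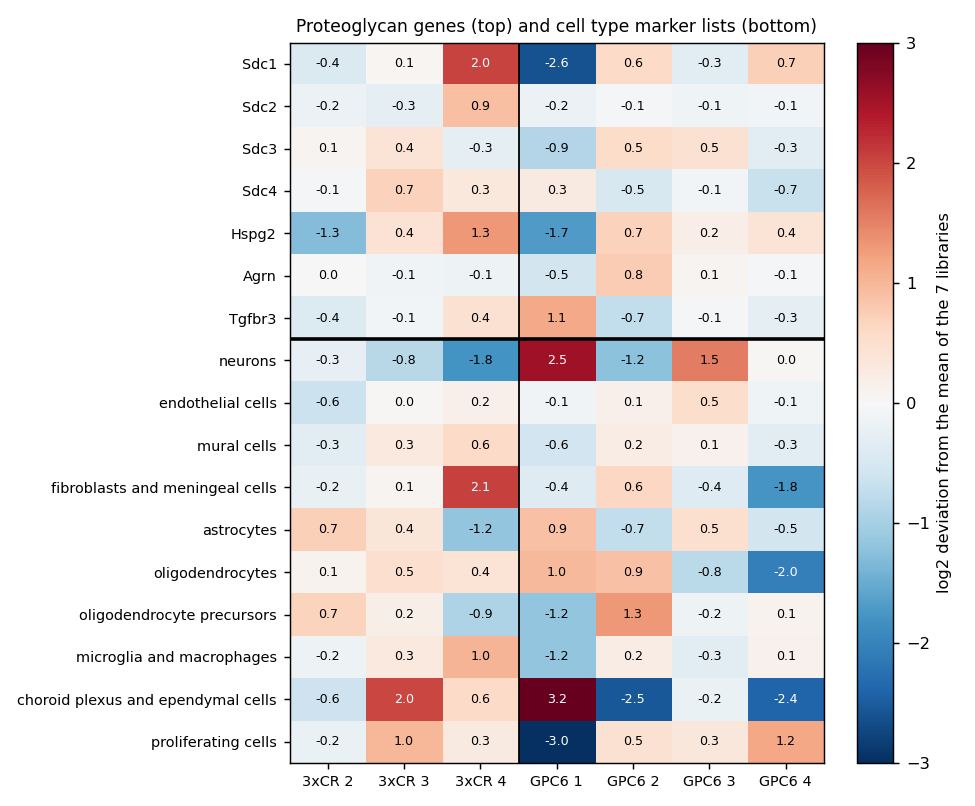
Log2 deviation from the mean of the 7 libraries (color scale and printed values) for the 7 proteoglycan genes (top rows) and for 10 cell type marker lists (bottom rows, mean over the list), 1 column per tumor. Sdc1, Hspg2 and the microglia and mural lists are highest in 3xCR replicate 4 and lowest in GPC6 replicate 1, while the lowest fibroblast score (-1.77) stands in GPC6 replicate 4.

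Genes that work with the members were described by lists, in each of which 0 genes passed limma's adjusted p in either direction. Of all genes tested, 48.3% were higher in GPC6 tumors by mean log2 value, which is what higher means for the lists. A value in parentheses after a gene of a list is its log2 fold change. Of the 13 other heparan sulfate proteoglycans 6 were higher (median -0.019, and -0.25 without GPC6 replicate 4 to 0.13 without GPC6 replicate 3), and Gpc3, Gpc6 and Spock2 were at an unadjusted p under 0.05 with log2 fold changes of 1.74, 2.85 and 1.92. Gpc1, the gene of highest mean normalized count in the list, had -0.24, and Cd44, the hyaluronan receptor with splice forms that carry heparan sulfate, had the lowest value at -1.35.

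Of 12 enzymes of chain synthesis, which build the chains, 7 were higher (median 0.11, and 0.0021 without 3xCR replicate 3 to 0.19 without 3xCR replicate 4). Extl2, which limits chain growth, had normalized counts of 585, 511 and 488 in 3xCR and 1054, 775, 829 and 1001 in GPC6 tumors, a log2 fold change of 0.78 with no overlap (limma unadjusted p = 0.0044, adjusted p = 0.730). Extl3, a starter of heparan sulfate chains, had the highest mean (-0.14), Extl1 the largest (1.10) and Fam20b, the xylose kinase, the lowest value (-0.16). Of 18 tested genes of sulfation and remodelling 11 were higher (median 0.11), with Hs3st6 and Hpse2 too low to test. Without GPC6 replicate 1 the median was -0.011 with 8 higher and 8 lower, and without GPC6 replicate 2 it was 0.055 with 9 of each, as many as without 3xCR replicate 3 (0.072). Sulf2, a sulfatase that removes sulfate groups from finished chains, was the most abundant (-0.15, with 13721 normalized counts in GPC6 replicate 2 and 2277 to 7977 in the others). Hs3st2, a sulfotransferase of neurons, had 2.17 with overlapping groups. Its normalized counts were 39.5, 29.8 and 4.14 in 3xCR and 202, 7.90, 342 and 77.2 in GPC6 tumors. Heparanase, Hpse, which cuts the chains, had 806, 617 and 967 in 3xCR and 130, 360, 608 and 547 in GPC6 tumors, a log2 fold change of -1.15 without overlap (limma unadjusted p = 0.060, adjusted p = 0.730).

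Proteases that release syndecan ectodomains and their inhibitors were lower by mean log2 value in 8 of 8 genes tested (median -0.74), with Mmp7 not among the genes of the table. Mmp2, a gelatinase, was the only one at an unadjusted p under 0.05. It had 650, 483 and 796 normalized counts in 3xCR and 184, 273, 311 and 189 in GPC6 tumors, a log2 fold change of -1.43 with no overlap (limma unadjusted p = 0.0012, adjusted p = 0.730). Timp1, an inhibitor, had -2.08, Timp3, the most abundant, -0.20, and the sheddase Adam10 the difference nearest to 0, at -0.082. For Timp1 3xCR replicate 4 had 1332 normalized counts and the other libraries 30.9 to 395. The list's score was highest in 3xCR replicate 4 (1.74) and lowest in GPC6 replicate 1 (-1.40), the same ends as those of Sdc1, and its median was -0.32 without either library, with 6 of 8 genes then lower. It was -1.31 without GPC6 replicate 2 and -1.27 without 3xCR replicate 2.

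Of 22 ligands and partners of syndecans 6 were higher (median -0.27). The median was -0.15 with 9 higher without GPC6 replicate 1, -0.18 without GPC6 replicate 4 and -0.40 without GPC6 replicate 2. The most abundant was Fyn, a kinase coupled to Sdc3 (-0.15). Tiam1, a Rac activator bound by syndecans, had the largest value (1.22, limma unadjusted p = 0.048, adjusted p = 0.730) and the matrix protein Tnc the lowest (-0.95). Itgb5, an integrin subunit, was at an unadjusted p of 0.026 (-0.69), and Ptprs, a receptor for heparan sulfate chains, had no overlap (0.47). In the agrin list 3 of 6 tested genes were higher (median 0.26, and -0.027 without 3xCR replicate 4 or GPC6 replicate 3, Musk being too low to test). Rapsn, the scaffold of acetylcholine receptors, had -0.63 at 14.4 to 41.1 normalized counts, with no overlap.

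Of 14 basement membrane partners of perlecan 3 were higher (median -0.28). The median was 0.097 with 9 higher when 3xCR replicate 4 was left out, -0.078 without GPC6 replicate 1 and -0.88 without 3xCR replicate 2. Col4a1, the most abundant, had 439, 2196 and 3942 normalized counts for 3xCR and 535, 3580, 2280 and 1299 for GPC6 tumors. It was therefore lowest in the same 2 tumors as Hspg2. Col4a2 had the largest value (0.19) and Fbln2 the lowest (-1.78). For Fbln2 3xCR replicate 4 had 2522 normalized counts and the other libraries 44.2 to 391. In the TGF-beta and inhibin axis of betaglycan 8 of 18 genes were higher (median -0.013, and 0.099 with 10 higher without GPC6 replicate 1). Tgfbr1, the type I receptor, was the most abundant (-0.47), the activin subunit Inhba had 1.03 and the ligand Tgfb3 -0.78. Inhba was scarce and overlapped, at 3.84, 4.65 and 34.5 normalized counts in 3xCR and 9.27, 5.93, 60.3 and 37.0 in GPC6 tumors. For Tgfb3 3xCR replicate 4 had 488 normalized counts and the other libraries 63.2 to 176.

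The genes of most similar pattern were named by Pearson's r of log2 values over the 7 libraries among those with a mean of at least 100 normalized counts, as a description. For Sdc1 they were Rpia, Emilin1 and Ptpn1 (0.993, 0.992 and 0.989), and for Hspg2 Nrp1, Piezo1 and Copa (0.980, 0.979 and 0.978). Sdc2 had Ptpn22, Hps1 and Ero1lb (0.991, 0.972 and 0.969), Sdc3 had Rps6ka3, Ddhd1 and Snx3 (0.976, 0.971 and 0.966), and Sdc4 had Lpar1, Lgi4 and Cd59a (0.958, 0.954 and 0.940). Agrn had Nsun4, Nxpe4 and Cep78 (0.978, 0.977 and 0.971) and Tgfbr3 had Hdac4, Cox5b and Ogfrl1 (0.980, 0.979 and 0.977). These are the highest of at least 11261 values for each member over 7 libraries, and no member was among the 3 closest of another.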

How the data were processed

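RNA-Seq libraries (poly(A)-selected, stranded) of 7 tumor brains were grouped by their labels. Per the methods and the labels' processing notes, the authors aligned reads to mm10 with STAR 2.5.0a, counted them on genes with Rsamtools and GenomicFeatures and normalized with DESeq2 1.20.0. The deposited values are normalized counts, a signal per gene that the authors obtained by division with a size factor per library, without correction for gene length. The division assumes that most genes do not change. Of 19282 entries, 25 whose names had become dates (0.254% to 0.361% of reads) were left out. Of the values, 100% were whole multiples of 1 read (tolerance 0.01), which gave back the reads.

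The groups were compared with limma 3.58.1 (R 4.3.3) on log2(normalized count + 1), variance trend, mean of at least 10, two-sided, Benjamini-Hochberg over 14782 genes. The log2 scale understates changes of scarce genes. edgeR 4.0.16 (quasi-likelihood), DESeq2 1.42.0 and voom were run on the recovered reads, beside other pseudocounts, filters, scalings, library weights, a replicate block and libraries left out, all planned. Pathway and cell type lists with libraries left out were added after the data were seen. The limma and edgeR fits were tested on simulated counts without differences in makeup between libraries, an easier setting than these tumors. The members, the lists and the libraries left out together were chosen with earlier results of these data known. Named genes were the members, Gpc6, per list the most abundant gene and both ends of the log2 fold change, and the 3 of most similar pattern per member. A gene that this rule names in the agrin list is not reported here. Extl2, Mmp2, Gpc3, Spock2, Itgb5, Ptprs and the single cell type markers were named after their values were seen. Replicates are separate brains.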

Additional observations from a re-analysis of the deposited data

How the results depend on the processing

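Over 20 alternatives for each gene, Sdc4 kept its direction in 20 (log2 fold change -0.76 to -0.37) and Sdc1 in 20 (-1.45 to -0.22). Not all alternatives could move the estimate. The other filters and the fit without variance trend left it at the main value, and the replicate block repeated the value without GPC6 replicate 1. Sdc4 was called in 1 of the 20 alternatives, with library weights (-0.76, limma adjusted p = 0.036), over a range of 0.036 to 0.999. These weights were 8.71 for 3xCR replicate 3 and 4.47 for GPC6 replicate 3 and at most 0.849 for the other libraries, and with them Sdc2 was 0.096. Weights gave 1962 genes at an adjusted and 5105 at an unadjusted p under 0.05, with 1 member in each. DESeq2 gave 9 and 1793 genes. When single libraries were omitted, genes at an unadjusted p under 0.05 numbered 119 (without 3xCR replicate 4) to 1401 (without GPC6 replicate 2), the members 0 to 1 (Sdc4, without GPC6 replicate 1) and the members without overlap 0 to 1 (1165 to 3098 of all genes). That member was Sdc4 without GPC6 replicate 1 or 3xCR replicate 2, and Sdc2 without 3xCR replicate 4.

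The log2 fold change with each library left out ranged from -0.48 to 0.12 for Sdc2, -0.33 to 0.15 for Sdc3, -0.96 to 0.34 for Hspg2, -0.088 to 0.35 for Agrn and -0.35 to 0.28 for Tgfbr3. Without GPC6 replicates 1 and 2 together Hspg2 was 0.17 and Tgfbr3 -0.16. In that setting 1 member, Sdc4, had no overlap, as had 3471 of the 14653 genes tested. An equal upper quartile put Tgfbr3 at -0.016. The cause of these turns was not tested. Only the GPC6 group had a replicate 1, so a block by replicate number (replicate block) took that library out of the group difference. The block estimates were therefore those without GPC6 replicate 1 (Sdc3 0.15, Hspg2 0.29, Tgfbr3 -0.35 and Sdc4 -0.73) and are no separate result. With the block 1 member (Sdc4) was at an unadjusted p under 0.05 (limma, 0.014), as were 678 genes, against 689 in the main fit. The numbers do not pair the tumors, as libraries of the same number correlated in their deviations by -0.19, 0.12 and 0.30. Without division by length the mean share of Sdc3 among syndecans was 79.8% and that of Sdc4 9.24%.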
